A study of Mus musculus with 6 samples.

Results

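The 10 genes described here encode the core of Polycomb repression and the enzymes that reverse its main histone mark. They were taken by gene symbol from a fixed list, and all 10 had a row among the 23420 gene rows of the count tables and passed the filter on low counts. They were read in 6 libraries of polyadenylated RNA. The cells came from the mouse organoid line Meta4, an epithelial culture of dysplastic tissue, and were sorted by flow cytometry into subpopulations of dysplastic stem cells. The groups were DP-DSCs (3 libraries) and TP-DSCs (3 libraries). The labels do not spell out DP and TP. Outside knowledge of the study reads them as double and triple positive for surface antigens, namely CD133 and CD166, joined in TP-DSCs by CD44v6. Both groups come from 1 organoid line, and the labels name no treatment, time or animal age. The question named by the series is how the transcriptomes of these subpopulations differ.

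Polycomb repressive complex 2 (PRC2) places methyl groups on lysine 27 of histone H3 (H3K27), a mark of silent developmental genes. Its enzyme is EZH2 or EZH1, held in an active form by EED and SUZ12, and JARID2 is a cofactor that helps bring the complex to chromatin. Polycomb repressive complex 1 (PRC1) adds ubiquitin to histone H2A through RNF2 or RING1, with BMI1 as a partner, and the demethylases KDM6A and KDM6B remove methyl groups from H3K27. EZH2 is known as the form of dividing cells and EZH1 as the form that persists in resting cells. In the gut and stomach, Polycomb genes are known for keeping fate genes of other organs silent, and Bmi1 has been used as a marker of reserve stem cells.

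Gene reads numbered 17015581 to 32671039 per library, so the 10 genes rested on 247 to 5266 reads each in every library, except for Ring1 in TP-DSCs replicate 3, which had 0. The TP-DSC libraries held reads from fewer genes (10571 to 10982) than the DP-DSC libraries (12504 to 14434). The library names carry the number 3840 (replicate 1 of each group) or 4140 (replicates 2 and 3), whose meaning the labels do not give. The 5 epithelial marker genes summed to between 7446 and 9758 CPM, the usual per-million scale of gene reads, in every library. The 7 fibroblast markers summed to at most 3.19 CPM and the 6 endothelial markers to below 5 CPM, with Col1a2, Col3a1, Dcn, Lum, Thy1, Pecam1 and Emcn at 0 in all 6 libraries. The 8 immune markers summed to 0 to 48.2 CPM, nearly all of it Cd68, a lysosomal glycoprotein gene, while Cd3e and Adgre1 (listed as Emr1) were at 0 throughout and Ptprc reached at most 0.0920 CPM. The genes of the sorted antigens overlapped between the groups and were not called: Prom1 (CD133), Alcam (CD166) and Cd44 had log2 fold changes of -0.26, 0.03 and -0.10 in edgeR, and counts per gene do not resolve the v6 form of Cd44. The labels call the samples of a group independent without naming cultures, sorts or days. The p-values therefore describe the spread among these samples, part of which may be technical. Values of a group are listed below in the order replicate 1, 2 and 3. In sorted bulk samples, fewer cells of a type and less RNA per cell cannot be told apart.

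No gene of the 10 passed the test of a difference between the groups. With edgeR's quasi-likelihood test, 0 of the 10 passed an adjusted p of 0.05, where 0% of the 11925 tested genes passed. At an unadjusted p under 0.05 there were again 0 of the 10, against 6.1% of tested genes, and DESeq2 called 0 of the 10, against 1.86% of the 14318 genes with an adjusted p there. The adjusted p in edgeR was 0.999 for each of the 10. The levels of the groups overlapped for all 10 genes, whereas 3.87% of tested genes had their lowest TP-DSC value above their highest DP-DSC value and 8.56% had the reverse. In fitted log2 fold change (positive values mean higher in TP-DSCs), 7 of the 10 genes lay above 0 and 3 below, with a median of 0.27, and 48.2% of all tested genes lay above 0, with a median of -0.02. Summed over the 10 genes, the level was 586, 640 and 576 CPM in the DP-DSC libraries and 674, 704 and 736 CPM in the TP-DSC libraries. The sums did not overlap even though each gene's levels did. Neither a test of this sum nor a comparison with other sets of genes was made. Without TP-DSCs replicate 3 the median log2 fold change of the 10 was 0.05.

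**Figure D1:**
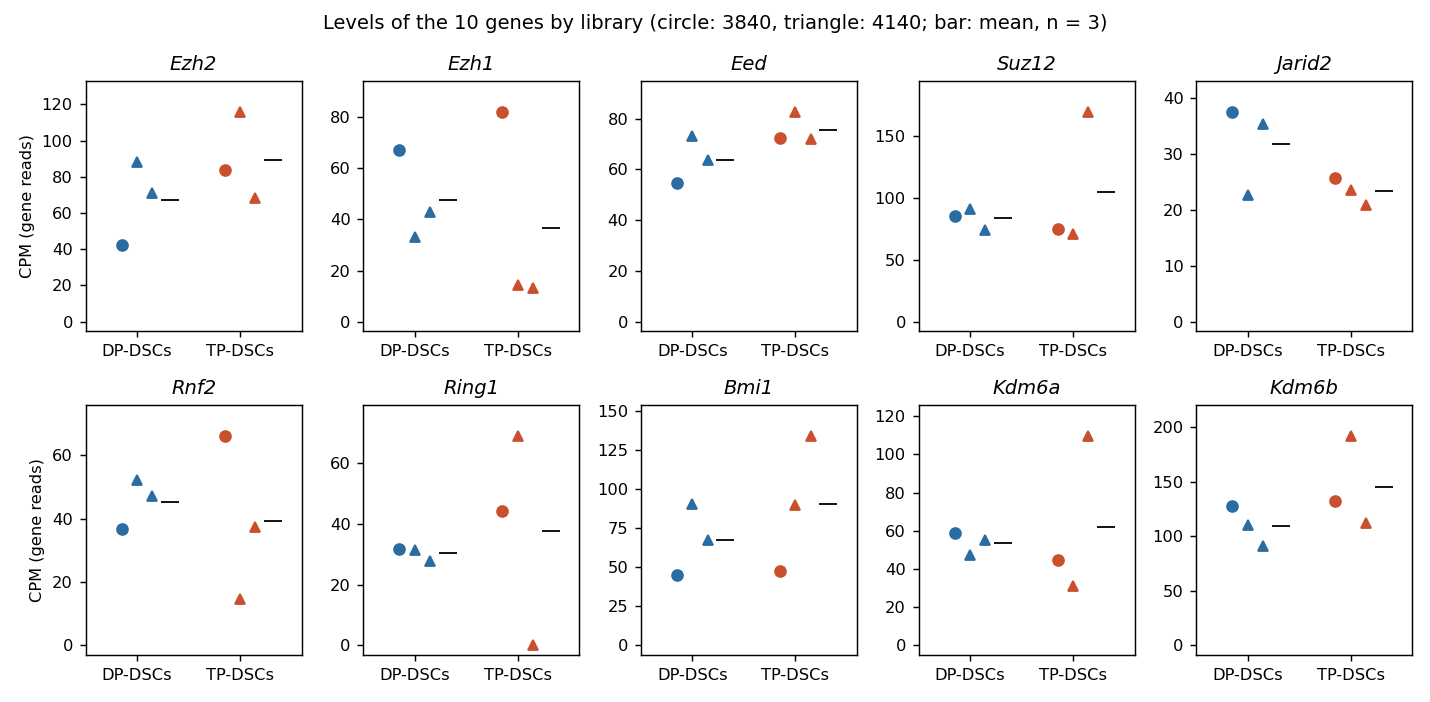
Level of each of the 10 genes in each library (y axis, CPM of gene reads; blue DP-DSCs, orange TP-DSCs; circles carry the number 3840 and triangles 4140 in their library name; bars are means of 3 libraries). The groups overlap in every panel. The TP-DSC points of Ezh1, Suz12, Ring1, Rnf2, Bmi1, Kdm6a and Kdm6b lie further apart than the DP-DSC points. Those of Ezh2 lie about as far apart, and those of Eed and Jarid2 closer together.

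The enzyme genes of PRC2 are printed first with the DNA upstream of their starts. The balance of Ezh2 to Ezh1 varied more between the DP-DSC libraries than the balance of either other paralog pair. A link between this spread and the DNA was not tested. The windows searched are the 250 bases before the annotated start in RefSeq (build GRCm38.p6, 5′ to 3′ on the gene's strand), printed here without the stretches that GENCODE M21 gives to exons. For Ezh2 this leaves the 125 bases between annotated exons. They lie at chr6:47595059-47595183 on the minus strand for Ezh2, at chr11:101226464-101226713 on the minus strand for Ezh1 and at chr11:79992856-79993105 on the plus strand for Suz12, which is shown as the only one of the 9 genes searched with a match to an E2F-type motif. Capitals mark CCAAT on either strand (read as ATTGG on the other) and, in Suz12, also the E2F-type match TTTCCCGC.
Ezh2: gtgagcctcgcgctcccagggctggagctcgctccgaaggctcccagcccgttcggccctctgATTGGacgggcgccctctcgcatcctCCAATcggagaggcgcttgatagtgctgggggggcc
Ezh1: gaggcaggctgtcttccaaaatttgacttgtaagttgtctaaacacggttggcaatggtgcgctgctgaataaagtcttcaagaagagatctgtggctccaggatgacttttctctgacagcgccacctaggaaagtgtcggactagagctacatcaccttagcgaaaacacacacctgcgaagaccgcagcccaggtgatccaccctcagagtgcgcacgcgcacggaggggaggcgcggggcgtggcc
Suz12: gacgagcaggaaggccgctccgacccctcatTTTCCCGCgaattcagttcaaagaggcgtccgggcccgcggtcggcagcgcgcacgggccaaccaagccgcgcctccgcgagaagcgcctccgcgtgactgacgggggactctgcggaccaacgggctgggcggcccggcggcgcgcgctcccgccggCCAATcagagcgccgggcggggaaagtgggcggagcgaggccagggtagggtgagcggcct

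CCAAT, the letters bound by NF-Y in many cell cycle promoters, stood 3 times in the Ezh2 window, with first bases 90, 64 and 11 bases before the start (the last in a stretch not printed), once in that of Suz12 and not in that of Ezh1. Of 32851 RefSeq windows of this length, 33.8% held CCAAT at least once and 2.79% at least 3 times. The E2F-type motifs searched, on both strands, were TTTCCCGC, TTTGGCGC, TTTCGCGC and TTTGCCGC, which do not overlap CCAAT in the windows shown, and 1.86% of all windows held at least 1 of them. Windows were found for 9 of the 10 genes, Kdm6b being the exception, and Jarid2 had 2 windows, of which 1 held CCAAT once. The CCAAT search was chosen after the Ezh2 sequence had been seen. A match of letters is not a binding site.

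Ezh2, the PRC2 methyltransferase gene on chromosome 6 (47530139 to 47595341 in mm10, minus strand), stood at 42.2, 88.0 and 70.9 CPM in the DP-DSC libraries and at 83.8, 116 and 68.0 CPM in the TP-DSC libraries. The lowest library was DP-DSCs replicate 1 and the highest TP-DSCs replicate 2, with TP-DSCs replicate 3 below 2 of the DP-DSC libraries. The means were 67.0 ± 23.1 and 89.1 ± 24.2 CPM (SD, n = 3 each). The fitted difference on the log2 scale was 0.41 ± 0.31 (SE), with a 95% interval from -0.31 to 1.14. It was 0.16 without DP-DSCs replicate 1 and 0.22 without TP-DSCs replicate 2. The first library was also the lowest of the 6 in cell cycle transcripts.

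Ezh1, the paralogous methyltransferase gene on chromosome 11 (101191115 to 101226463, minus strand), showed the widest relative spread within TP-DSCs of the 10 genes. It stood at 67.1, 33.3 and 42.9 CPM in the DP-DSC libraries and at 81.9, 14.5 and 13.0 CPM in the TP-DSC libraries. The highest library of each group was its replicate 1, the library numbered 3840, and TP-DSCs replicates 2 and 3 lay below every DP-DSC library. The log2 fold change was -0.35 ± 0.78 (SE), with a 95% interval from -2.17 to 1.47. With the number 3840 or 4140 as a block in edgeR it was -0.92, and in limma-voom without the block -0.93, and neither was called. Among the libraries numbered 4140 the difference of mean log2 CPM was -1.50, and in the single 3840 pair, which has no replicate check, it was 0.32. The test of this difference between the numbers gave an interaction of -1.84 on the log2 scale (edgeR adjusted p = 0.666), with Ezh1 the only gene of the 10 at an unadjusted p under 0.05. Of all 11925 genes, 0 passed that test and 788 were at an unadjusted p under 0.05. Without TP-DSCs replicate 1 the log2 fold change of Ezh1 was -1.90 (edgeR adjusted p = 0.176), without TP-DSCs replicate 2 it was 0.05 and without TP-DSCs replicate 3 it was 0.07.

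The balance of the paralogs was taken inside each library, where it does not depend on library scaling. The log2 ratio of Ezh2 reads to Ezh1 reads was -0.67, 1.40 and 0.72 in the DP-DSC libraries and 0.03, 2.99 and 2.39 in the TP-DSC libraries. The libraries numbered 3840 were the lowest of each group, and both TP-DSC libraries numbered 4140 lay above every DP-DSC library. The difference of the means, 1.32, did not pass an exact two-sided permutation test (p = 0.3, adjusted p = 0.9 over the 3 paralog pairs). In this test 3 against 3 libraries cannot go below 0.1, and the number 3840 or 4140 was not taken into account. The difference ranged from 0.73 to 2.20 when 1 library was left out.

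**Figure D2:**
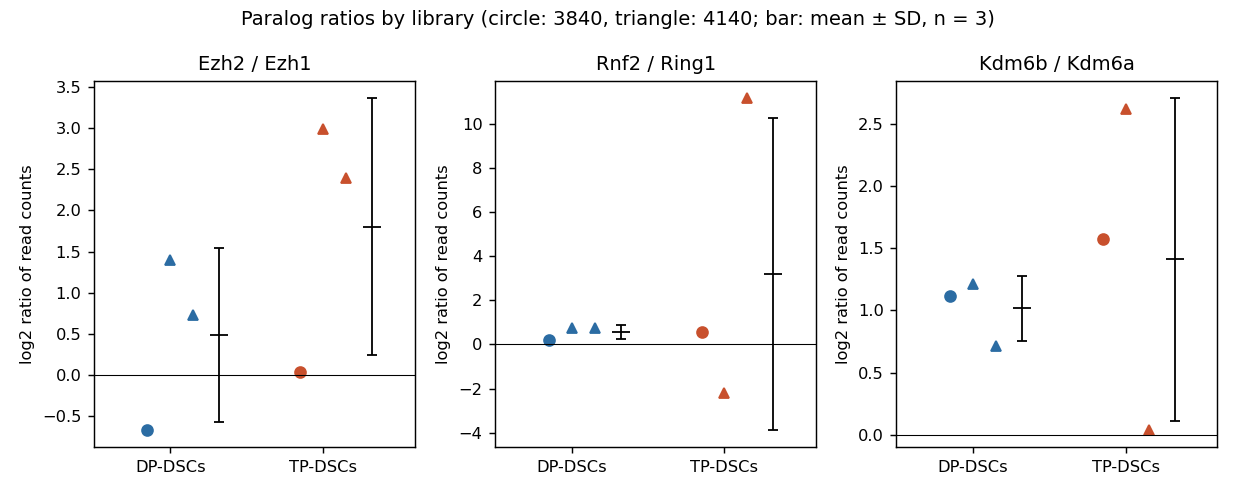
Log2 ratio of read counts of Ezh2 to Ezh1, Rnf2 to Ring1 and Kdm6b to Kdm6a in each library (y axis, each panel with its own scale; 0.5 added to each count; symbols as in the plot of levels; bars are means ± SD, n = 3). The DP-DSC ratios of the last pairs stay within 0.22 to 0.76 and 0.72 to 1.21, while those of TP-DSCs spread further. The highest Rnf2 to Ring1 point is the library without Ring1 reads, and its height is set by the 0.5 added.

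The PRC2 scaffold genes differed in how steady they were. Eed, whose protein reads the methyl mark and stimulates the enzyme (chromosome 7, 89954654 to 89980983), stood at 54.6, 73.1 and 63.9 CPM in the DP-DSC libraries and at 72.6, 82.5 and 72.0 CPM in the TP-DSC libraries. It had the narrowest spread within TP-DSCs of the 10 genes (a coefficient of variation of 7.82%), and the groups overlapped only through DP-DSCs replicate 2. Its log2 fold change was 0.24 ± 0.19 (SE), with a 95% interval from -0.22 to 0.69, and 0.13 without DP-DSCs replicate 1. With DESeq2 size factors in place of gene reads as the scale, the levels of Eed, and of none of the other 9 genes, no longer overlapped, where 4.32% of tested genes lay above and 8.48% below.

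Suz12, which encodes the subunit that PRC2 needs for its assembly (chromosome 11, 79993106 to 80034123), stood at 85.2, 91.3 and 74.4 CPM in the DP-DSC libraries and at 74.9, 71.1 and 169 CPM in the TP-DSC libraries. A single library, TP-DSCs replicate 3, was high, and the other TP-DSC libraries lay near or below the lowest DP-DSC value. The log2 fold change of 0.30 ± 0.34 (SE) turned to -0.17 without that library. Jarid2, the cofactor gene (chromosome 13, 44729474 to 44921643), stood at 37.4, 22.6 and 35.2 CPM in the DP-DSC libraries and at 25.7, 23.4 and 20.9 CPM in the TP-DSC libraries. Its TP-DSC libraries were close together, and the groups overlapped only through DP-DSCs replicate 2. Its log2 fold change of -0.46 ± 0.38 (SE) was the lowest of the 10, with a 95% interval from -1.36 to 0.43, and it stayed between -0.69 and -0.32 whichever library was left out.

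The PRC1 ligase genes were steady in DP-DSCs and scattered in TP-DSCs. Rnf2, which encodes the ubiquitin ligase RING1B (chromosome 1, 151458004 to 151500955), stood at 36.8, 52.2 and 47.2 CPM in the DP-DSC libraries and at 66.1, 14.8 and 37.4 CPM in the TP-DSC libraries. The TP-DSC values thus surrounded those of DP-DSCs on both sides. On the log2 scale the fold change was -0.17 ± 0.53 (SE), and 0.23 without TP-DSCs replicate 2.

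Ring1, the paralogous ligase gene in the major histocompatibility region (chromosome 17, 34020792 to 34024680), stood at 31.6, 31.5 and 27.9 CPM in the DP-DSC libraries and at 44.2, 68.9 and 0 CPM in the TP-DSC libraries. In replicates 1 and 2 of TP-DSCs it lay above every DP-DSC library, and replicate 3 had no Ring1 read among 31068454 gene reads, which allows up to 0.0966 CPM (3 counts, counting error only, since reads are not independent molecules). Of 1178 tested genes with reads in all DP-DSC libraries and a DP-DSC mean of 25 to 35 CPM, 13 had no reads in TP-DSCs replicate 3, Ring1 included, and 4 and 13 had none in replicates 1 and 2. The log2 fold change was 0.31 ± 1.49 (SE), with a 95% interval from -3.19 to 3.81, a fitted value that depends on how the library at 0 is treated. Without TP-DSCs replicate 3 it was 0.90 (edgeR adjusted p = 0.259), and without TP-DSCs replicate 2 it was -0.36. The log2 ratio of Rnf2 to Ring1 was 0.22, 0.73 and 0.76 in the DP-DSC libraries and 0.58 and -2.22 in TP-DSCs replicates 1 and 2. In replicate 3, without Ring1 reads, it was at least 8.60 (against a floor of 3 counts). An exact two-sided permutation test gave p = 0.9, and the difference of means is set by the value added to each count, at 2.61 with 0.5 and 1.51 with 5.

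Bmi1, the PRC1 partner gene (chromosome 2, 18677018 to 18686629), stood at 44.9, 90.0 and 67.3 CPM in the DP-DSC libraries and at 47.6, 89.9 and 134 CPM in the TP-DSC libraries. Within each group the library numbered 3840 was the lowest, and TP-DSCs replicate 3 was the one library above all others. This gave 0.40 ± 0.37 (SE) on the log2 scale, 0.04 without that library and 0.17 without DP-DSCs replicate 1. Suz12, Bmi1 and Kdm6a had their highest value in TP-DSCs replicate 3. In that library Ring1 had no reads, and Ezh1 and Jarid2 had their lowest values. The part of the lower number of detected genes in all 3 TP-DSC libraries in these values was not tested.

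The H3K27 demethylase genes differed in which TP-DSC library was highest. Kdm6a, also called Utx (chromosome X, 18162575 to 18279936), stood at 58.8, 47.6 and 55.2 CPM in the DP-DSC libraries and at 44.5, 31.1 and 110 CPM in the TP-DSC libraries. TP-DSCs replicates 1 and 2 lay below every DP-DSC library and replicate 3 above. Its log2 fold change of 0.16 ± 0.45 (SE) turned to -0.49 without replicate 3. Uty, the related gene on the Y chromosome, had 0 reads in all 6 libraries.

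Kdm6b, also called Jmjd3 and known as an inducible demethylase (chromosome 11, 69398508 to 69413675), stood at 128, 110 and 90.8 CPM in the DP-DSC libraries and at 132, 192 and 112 CPM in the TP-DSC libraries. TP-DSCs replicate 2 was highest, and replicate 3 lay inside the DP-DSC range. The means were 110 ± 18.4 and 145 ± 41.4 CPM (SD, n = 3 each). This gave a fitted 0.39 ± 0.25 (SE) on the log2 scale, with a 95% interval from -0.21 to 0.98, and was 0.18 without TP-DSCs replicate 2 and 0.26 without DP-DSCs replicate 3. Its unadjusted p was the smallest of the 10 (edgeR adjusted p = 0.999), at rank 1762 of the 11925 tested genes. The log2 ratio of Kdm6b to Kdm6a was 1.12, 1.21 and 0.72 in the DP-DSC libraries and 1.57, 2.62 and 0.04 in the TP-DSC libraries (exact two-sided permutation test, p = 0.7), and the difference of its means turned from 0.39 to -0.21 without TP-DSCs replicate 2.

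**Figure D3:**
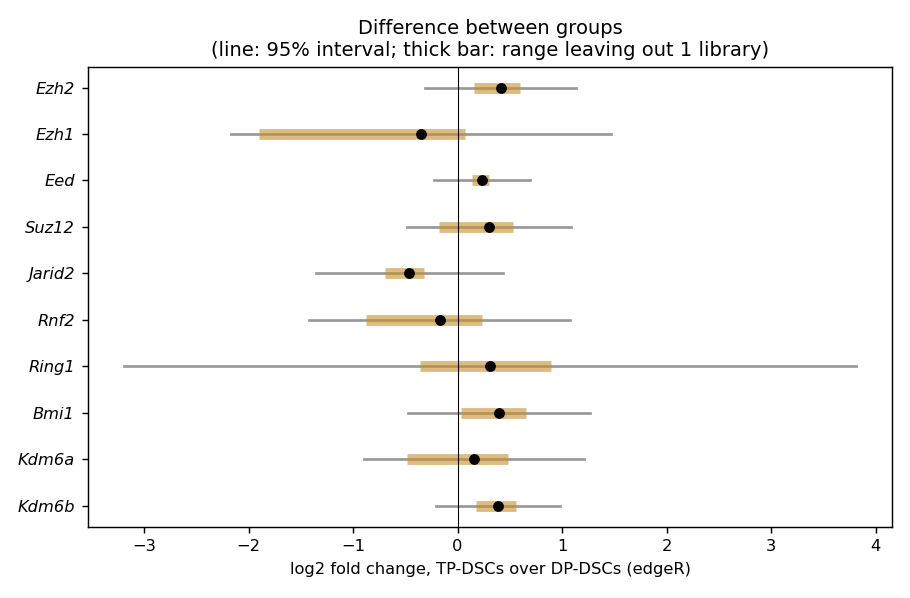
Log2 fold change of each of the 10 genes (x axis, TP-DSCs over DP-DSCs, edgeR; points are fitted values, lines 95% intervals, thick bars the range when each library in turn is left out). All intervals include 0, and the widest belongs to Ring1, from -3.19 to 3.81.

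Spread between libraries varied by gene, and its difference between the groups was not tested. The median coefficient of variation was 17.1% over the DP-DSC libraries and 50.3% over the TP-DSC libraries. Over 6932 tested genes with a mean of 20 to 200 CPM it was 18.4% and 31.4%, in the same order. Ezh1 (108%), Ring1 (92.6%), Kdm6a (68.1%), Rnf2 (65.3%) and Suz12 (53.0%) held the highest values in TP-DSCs. Eed, Jarid2 and Ezh2 varied less over the TP-DSC libraries (7.82%, 10.4% and 27.2%) than over the DP-DSC libraries (14.5%, 25.2% and 34.5%). Among the libraries numbered 4140 alone, 3 of the 10 genes had groups that did not overlap, Kdm6b above and Ezh1 and Rnf2 below, where 17.2% of tested genes lay above and 22.5% below by the same criterion.

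Levels were compared between genes only per length, as CPM per kilobase of the longest coding transcript. Eed was the highest in both groups, at 30.9 ± 4.49 in DP-DSCs and 36.6 ± 2.86 in TP-DSCs (SD, n = 3 each), followed by Ezh2 in both, with a mean of 28.0 over all 6 libraries. Bmi1, Suz12, Kdm6b and Ring1 came next, with means over all 6 libraries of 22.0, 21.6, 19.2 and 16.7 CPM per kilobase. Rnf2, Ezh1 and Kdm6a followed at 13.3, 10.01 and 9.74, and Jarid2 was lowest at 5.29 ± 1.33 in DP-DSCs and 3.89 ± 0.41 in TP-DSCs. Neighbours in this order overlapped between libraries in both groups, except that Kdm6a lay above Jarid2 in every library. Divided by the total length of annotated exons instead, Bmi1, Suz12, Kdm6b and Eed were the highest, at 19.9, 19.1, 18.3 and 18.2 CPM per kilobase, and Jarid2 was again the lowest, so the order at the top depends on the transcript form assumed.

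Of the 10 genes, 4 have no annotated neighbour overlapping them in GENCODE M21 (Ezh1, Bmi1, Ring1 and Kdm6a), and Jarid2 shares no exon with its overlapping gene. For Ezh2, Eed, Suz12, Rnf2 and Kdm6b, between 2.61% and 6.82% of the exon length is shared with a gene on the opposite strand. The strand setting of the counting is not given in the sources used here, so reads of those stretches could not be assigned to 1 of the genes with certainty.

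The level of Ezh2 was set beside cell cycle genes, since it is known as a gene of dividing cells. The 20 S phase genes summed to 810, 1922 and 1507 CPM in the DP-DSC libraries and to 1296, 1913 and 1883 CPM in the TP-DSC libraries. The 20 genes of G2 and M phase summed to 679, 1337 and 921 CPM, and to 1243, 2134 and 1952 CPM, in the same order. DP-DSCs replicate 1 was the lowest library for Ezh2 and for both sums, and TP-DSCs replicate 2 was the highest for Ezh2 and for the G2 and M sum. TP-DSCs replicate 3 did not follow, with high sums and the second lowest Ezh2 value. The part of cell cycle state in the values of Ezh2 was not tested.

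**Figure D4:**
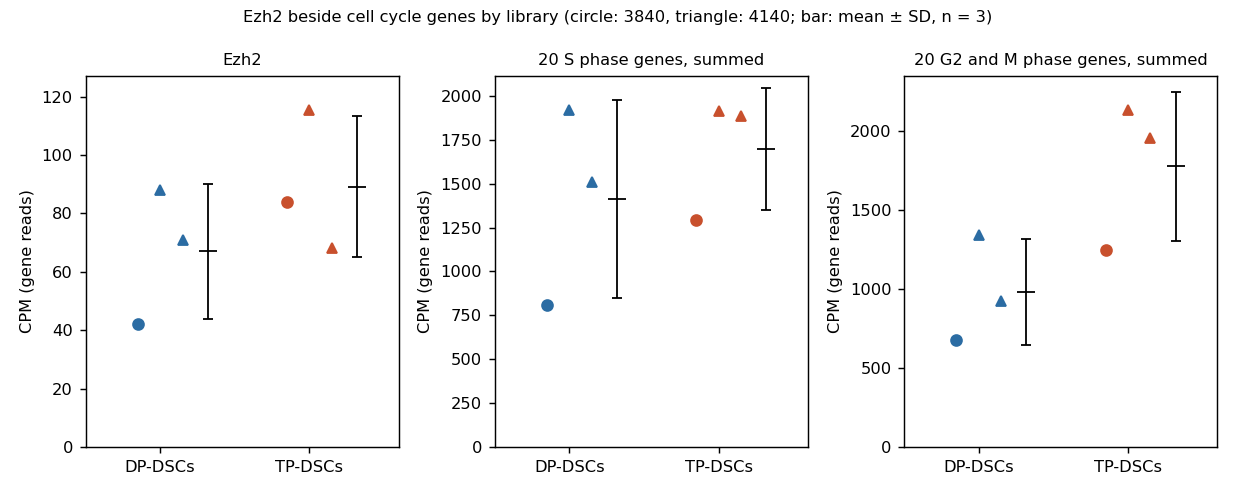
Level of Ezh2 and summed levels of the S phase and of the G2 and M phase genes in each library (y axis, CPM of gene reads; symbols as in the plot of levels; bars are means ± SD, n = 3). DP-DSCs replicate 1 is lowest in all 3 panels, while TP-DSCs replicate 3 is high in both sums and at 68.0 CPM in Ezh2.

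All 20 genes of G2 and M phase had a log2 fold change above 0, with a median of 0.70. With edgeR 0 of them passed an adjusted p of 0.05 and 5 had an unadjusted p under 0.05, against 6.1% of all tested genes, and DESeq2 called 4, against 1.86%. The smallest p belonged to Mki67, a proliferation antigen gene, at 122 ± 17.4 CPM over the DP-DSC libraries and 306 ± 62.3 over the TP-DSC libraries (SD, n = 3 each; edgeR adjusted p = 0.121), followed by the kinetochore genes Cenpf and Cenpe with log2 fold changes of 1.98 and 1.69. The S phase list had 16 of 20 genes above 0 and a median of 0.25, which was -0.04 without DP-DSCs replicate 1, 0.56 without DP-DSCs replicate 2, 0.41 without TP-DSCs replicate 3 and 0.01 in the 4140 libraries alone. Its smallest unadjusted p belonged to Gmnn, an inhibitor of replication licensing, with a log2 fold change of 0.88, followed by Pola1, a replicative polymerase gene, with 0.89 and the licensing gene Cdt1 with 0.57.

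Genes with the library profile most like that of Ezh2 and Kdm6b were sought by the root mean square difference of centred log2 CPM over the 6 libraries, among 10517 tested genes with a mean of at least 4 CPM. For Ezh2 these were Dck, a nucleoside salvage kinase gene (0.08), Gtpbp5, a gene of a GTP-binding protein (0.10), and Odc1, the first enzyme of polyamine synthesis (0.11). Dck stood at 15.9, 39.1 and 29.6 CPM in the DP-DSC libraries and at 36.2, 48.0 and 26.97 CPM in the TP-DSC libraries, with the same lowest and highest libraries as Ezh2. For Kdm6b they were Fbxo11 (0.07), a ubiquitin ligase adaptor gene, Lnp (0.07), and Pfkfb2 (0.09), a regulator of glycolysis. With 6 libraries and this many candidates, close matches arise readily and no test was made.

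The other genes of the pathway gave 0 calls in edgeR and in DESeq2 in each of the lists that follow up to the Polycomb targets. At an unadjusted p under 0.05 in edgeR there were also 0 in each. Over all genes the shares were 0% in edgeR, 1.86% in DESeq2 and 6.1% unadjusted in edgeR, and 48.2% of tested genes lay above 0. Of 10 PRC2 accessory genes 9 were tested, of which 8 lay above 0 and 1 below, with a median log2 fold change of 0.18 (0.08 without DP-DSCs replicate 3, 0.06 in limma-voom and 0.56 in the 4140 libraries alone). Rbbp4, a histone-binding subunit gene and the exception below 0, stood at 179 ± 55.4 CPM over the DP-DSC libraries and 135 ± 27.3 over the TP-DSC libraries (SD, n = 3 each), with a log2 fold change of -0.42 ± 0.26 (SE). Its paralog Rbbp7 had 0.18 ± 0.16 and Aebp2, a DNA-binding subunit gene, 0.22 ± 0.26.

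Of 25 other PRC1 genes 24 were tested, of which 16 lay above 0 and 8 below, with a median of 0.17, or -0.01 without TP-DSCs replicate 2. The smallest p-values belonged to Mga (0.43 ± 0.30, log2 fold change and SE), a subunit of a variant PRC1, Scml4 (-0.56 ± 0.44) and E2f6 (-0.39 ± 0.35), a repressor in that variant complex. E2f6 was the one PRC1 gene whose TP-DSC values all lay below those of DP-DSCs, at 25.1, 30.8 and 30.9 CPM in DP-DSCs and 23.4, 23.8 and 19.4 CPM in the TP-DSC libraries. Pcgf6, a partner in the same variant complex, was the one whose TP-DSC values all lay above, at 33.4 ± 2.01 CPM over the DP-DSC libraries and 40.7 ± 1.76 over the TP-DSC libraries (SD, n = 3 each), and it is named after its values were seen. These counts of 1 among 24 stand against 8.56% and 3.87% of all tested genes.

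The Polycomb deubiquitinase genes, which remove the PRC1 mark, had 3 of 9 tested members above 0 and a median of -0.07, which ran from -0.17 to 0.01 when DP-DSCs replicates 3 and 2 were left out in turn. Bap1, the deubiquitinase itself, had a log2 fold change of -0.31 ± 0.22 (SE), Ogt, a glycosyltransferase partner, 0.36 ± 0.32 and Mbd5 -0.44 ± 0.61. Among partners of Kdm6a and other trithorax methyltransferase genes, which act against Polycomb, 7 of 13 tested genes lay above 0, with a median of 0.14 that was -0.05 without DP-DSCs replicate 3, -0.04 without TP-DSCs replicate 3 and 0.34 without DP-DSCs replicate 2. Paxip1, which encodes a subunit of the complex that carries KDM6A, had 0.47 ± 0.29, while the methyltransferase cofactors Dpy30 and Wdr5 had 0.50 ± 0.32 and -0.47 ± 0.31. Of 7 histone acetyltransferase and deacetylase genes, 3 lay above 0, with a median of -0.0002. That median was -0.22 without TP-DSCs replicate 2 and 0.08 without TP-DSCs replicate 1. The acetyltransferase genes Ep300 and Kat2a had 0.23 ± 0.22 and -0.38 ± 0.44, and the deacetylase gene Hdac1 had -0.23 ± 0.34.

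**Figure D5:**
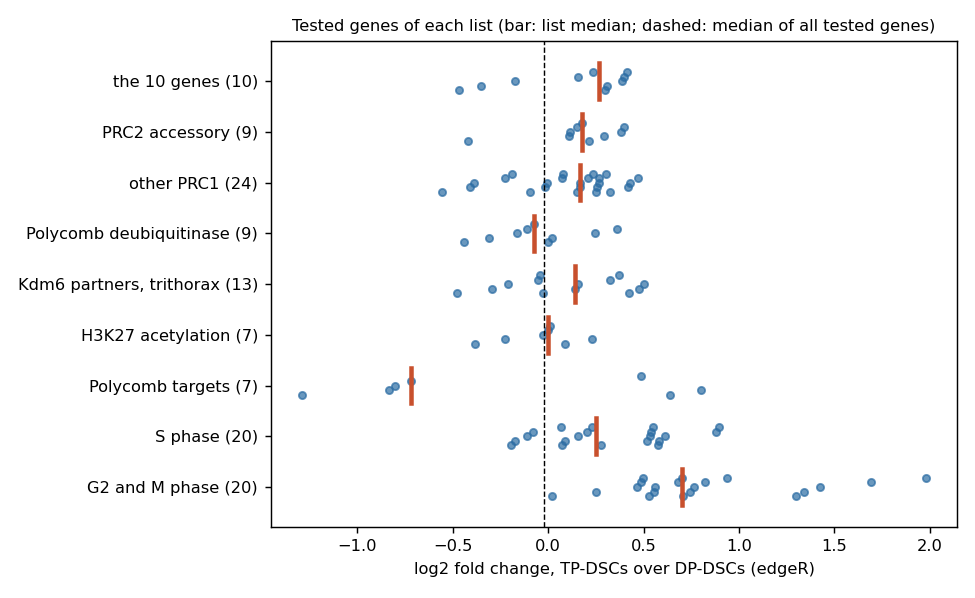
Log2 fold change of each tested gene (x axis, TP-DSCs over DP-DSCs, edgeR; 1 point per gene, grouped by list, with the number tested in brackets; orange bars are list medians and the dashed line the median of all tested genes). The 10 genes and the lists of complex subunits, trithorax and acetylation genes stay between -0.56 and 0.50, while the G2 and M phase list reaches 1.98.

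Textbook targets of Polycomb repression were mostly without reads in both groups. Of the 39 genes of the Hox clusters 34 had no reads in any library and 0 passed the filter on low counts. Of all 23420 gene rows, 15176 had reads in at least 1 library. The part of Polycomb repression in this lack of reads was not tested. Summed over the clusters the level was at most 0.0920 CPM in DP-DSCs, and 3.25, 0 and 5.47 CPM in the TP-DSC libraries. The last value was Hoxd9 alone. Of 24 other targets, 15 had no reads in any library. The 7 tested, 3 above and 4 below 0, gave 0 calls in edgeR, where 0% of all tested genes were called. Their median was -0.72, but 0.47 when DP-DSCs replicate 1 was left out and 0.09 when replicate 3 of that group was.

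Among the 7 tested targets, Cdkn2a and Cdkn2b had the highest means over all libraries. They form the Ink4 locus, a classical Polycomb target that encodes cell cycle inhibitors. Cdkn2a stood at 43.2, 78.3 and 111 CPM in the DP-DSC libraries and at 39.9, 41.1 and 61.8 CPM in the TP-DSC libraries. Its log2 fold change was -0.72 ± 0.36 (SE; edgeR adjusted p = 0.991). The neighbouring Cdkn2b stood at 27.2, 72.8 and 83.5 CPM in DP-DSCs, and at 31.2, 17.3 and 54.9 CPM in TP-DSCs, with a log2 fold change of -0.83 ± 0.53. Both genes were lower on average in TP-DSCs, with groups that overlapped, and for both DP-DSCs replicate 1 was the lowest and replicate 3 the highest of its group. Cdkn1c, an inhibitor gene of another family, averaged 4.52 ± 1.09 CPM over the DP-DSC libraries and 7.13 ± 1.61 over the TP-DSC libraries (SD, n = 3 each), with a log2 fold change of 0.64 ± 0.91. Cdkn2a encodes both p16 and p19, whose transcripts these counts cannot tell apart.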

How the data were processed

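PolyA-selected RNA of 3 DP-DSC and 3 TP-DSC samples was sequenced with a stranded kit, per the labels' protocols. The authors deposited 1 raw read count per gene symbol and library, with no normalization apparent in the values. STAR 2.7.3a, Partek, DESeq2 3.5 and the build mm10 are named in the submitters' processing notes, with roles and counting settings not given in the sources used here. Rows for reads in no gene (14.1 to 20.3% of all reads) and ambiguous reads (1.09 to 1.86%) were left out of totals and tests. Replicates differed far beyond counting noise (chi-square per degree of freedom 112 to 306), so none was counted as a duplicate.

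CPM is the count over all gene reads of the library. Differences were fitted in edgeR 4.0.16 (R 4.3.3; filterByExpr with a minimum count of 10 and total of 15, TMM scaling, quasi-likelihood F test, group as the only term, Benjamini-Hochberg adjustment over all 11925 genes); the SE is the log2 fold change over the square root of F. DESeq2 1.42.0 was fitted to all genes with reads and limma 3.58.1 with voom. Paralog ratios used 0.5 added to each count. The edgeR fit was also run on simulated data, and no result given here rests on that run. Whether it finds differences at the spread of these libraries was not tested. Replicates were numbered by accession, which pairs nothing.

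The genes and lists were chosen with earlier results of these data known. Named genes are the 10, up to 3 per pathway list with the smallest p and a mean of at least 4 CPM, Uty, Cdkn2a, Cdkn2b and Hox genes reaching 4 CPM. GENCODE M21 (GRCm38, the assembly of mm10) gave lengths and positions. Older symbols in the files were matched through RefSeq synonyms, and Kmt2d, whose older symbol is not unique, was not used here.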

Additional observations from a re-analysis of the deposited data

How the results depend on the processing

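Under every alternative run, 0 of the 10 genes passed an adjusted p of 0.05: DESeq2 size factors, library size only, DESeq2, limma-voom, no filter, a filter on mean count at 10, a block for the number 3840 or 4140, the 4140 libraries alone, and each library left out. Over all genes the count was 0 in edgeR and limma-voom and 267 in DESeq2, which also called 4 genes of the pathway lists, all of G2 and M phase. Leaving out 1 library gave 0 to 0 calls. The sign turned in limma-voom for Ring1 (-4.00). With 1 library left out, the log2 fold change ran from -1.90 to 0.071 for Ezh1 (without TP-DSCs replicate 2 it was 0.047), from -0.17 to 0.53 for Suz12, from -0.36 to 0.90 for Ring1, from -0.88 to 0.23 for Rnf2 and from -0.49 to 0.49 for Kdm6a. The difference of log2 ratios ran from -1.39 to 5.31 for Rnf2 to Ring1 and from -0.21 to 1.08 for Kdm6b to Kdm6a. For Rnf2 to Ring1 the upper end is set by the 0.5 added to the library without Ring1 reads. The lower end came without that library, TP-DSCs replicate 3. Each of these turns came without TP-DSCs replicate 2 or 3, and the cause was not tested. Ezh2, Eed, Jarid2, Bmi1 and Kdm6b kept their sign under all of these settings. The number of the 10 with groups that did not overlap was 0 by gene reads or TMM, 1 by DESeq2 size factors (Eed; 4.32% of tested genes above, 8.48% below) and 3 in the 4140 libraries alone (17.2% above, 22.5% below). The median of the 10 fell from 0.27 to 0.05 without TP-DSCs replicate 3. The median of the Polycomb targets was -0.10 in the 4140 libraries alone and -1.45 in limma-voom, against -0.72. With 3 libraries a group, the upper 95% bounds of the 10 genes ran from 0.43 (Jarid2) to 3.81 (Ring1) on the log2 scale. The lower bounds ran from -3.19 (Ring1) to -0.21 (Kdm6b), with that of Jarid2 at -1.36. The size of difference that 3 libraries a group can detect was not tested.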
